A study of Arabidopsis thaliana with 8 samples.

Results

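The histone genes of Arabidopsis thaliana were taken as a list of 43 loci, out of 27444 nuclear protein-coding genes, and nucleosome positions were described from 500 bp upstream of each gene start to 300 bp past its end. The list was fixed by gene identity and used no measured value, although earlier results of these data were known when it was chosen. It held 27 canonical core histone genes (8 for H4, 5 for H3.1, 4 for H2A and 10 for H2B), 13 variant genes (3 for H3.3, 2 for H2A.X, 4 for H2A.Z, 3 for H2A.W and 1 divergent H2B locus, AT1G08170) and 3 genes for the linker histone H1. The measurement was micrococcal nuclease sequencing (MNase-seq), in which the enzyme trims away DNA that is not wrapped around histones and the protected fragments are sequenced. All samples were callus from root explants of 3-week-old Landsberg erecta seedlings that carried 35S:LFY-GR, a fusion of the floral regulator LEAFY to a steroid receptor domain, expressed from a viral promoter active in most cells, and that had been kept for up to 5 days on callus-inducing medium (CIM). The fusion enters the nucleus when dexamethasone (dex) is added. The study asked how LEAFY meets nucleosomes, and it compared dex with mock treatment for 1 h under a low or a high (standard) MNase digest. The 4 groups were therefore low digest dex, low digest mock, high digest dex and high digest mock, with 2 libraries each, and no group without the transgene was used here.

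Each group was represented by 1 deposited list of nucleosomes, every entry an interval of 140 bp with an occupancy signal. No spread between replicates can be given, so every comparison here is a description without a test. The nuclear lists held 242336 nucleosomes in low digest dex, 316733 in low digest mock, 376240 in high digest dex and 482098 for high digest mock, and they covered 27.9%, 36.2%, 42.7% and 54.4% of the nuclear chromosomes in that order. Coverage of genes therefore tends to rise with the length of the list, though not in every gene. For this reason each value of the histone genes is given beside that of all protein-coding genes in the same list. Read depth is unknown from these files. The names inside the list assigned to high digest dex call it a low digest dex library, so that a comparison that uses it rests on the file's label.

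Nucleosomes wrap DNA around an octamer of core histones, which dividing cells must supply along with new DNA. Canonical histones H4, H3.1, H2A and H2B are made in bulk during DNA replication, when new DNA has to be packaged, whereas the variants H3.3, H2A.X, H2A.Z and H2A.W are placed at particular regions or at other times, and H1 binds the linker DNA between nucleosomes. Plant promoters of replication-dependent histone genes are known for short shared elements just upstream of the start, among them an octamer, a hexamer bound by bZIP factors and a CCGTCG element, through which S-phase and dividing-cell expression is controlled.

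The 200 bp before the start are shown for 1 canonical gene of each core histone, since the results turn on this stretch. Each gene shown had a listed nucleosome center within 200 bp upstream in all 4 lists, and no other such gene of its family held more motif sites. AT5G65360 (H3.1) and AT3G46030 (H2B) held equally many, and the lower gene number was shown. Capitals mark matches on either strand to the octamer CGCGGATC, the hexamer ACGTCA and the CCGTCG element. The letters were read 5' to 3' along the gene from the TAIR10.1 reference of RefSeq, which is the Columbia and not the Landsberg erecta sequence.
AT5G59690 (H4), chr5:24051274-24051473, plus strand: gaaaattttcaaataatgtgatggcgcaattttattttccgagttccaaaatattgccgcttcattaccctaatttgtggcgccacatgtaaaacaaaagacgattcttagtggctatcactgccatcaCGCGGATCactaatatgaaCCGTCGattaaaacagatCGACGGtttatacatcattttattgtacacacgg
AT3G27360 (H3.1), chr3:10129938-10130137, minus strand: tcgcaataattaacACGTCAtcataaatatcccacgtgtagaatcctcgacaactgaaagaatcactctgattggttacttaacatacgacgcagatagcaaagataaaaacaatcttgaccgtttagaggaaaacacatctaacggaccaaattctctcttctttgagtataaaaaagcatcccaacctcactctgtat
HTA13, AT3G20670 (H2A), chr3:7229190-7229389, plus strand: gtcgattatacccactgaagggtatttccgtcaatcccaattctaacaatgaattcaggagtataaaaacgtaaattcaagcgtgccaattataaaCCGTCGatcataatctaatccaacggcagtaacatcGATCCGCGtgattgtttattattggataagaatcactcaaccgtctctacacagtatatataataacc
HTB9, AT3G45980 (H2B), chr3:16898014-16898213, minus strand: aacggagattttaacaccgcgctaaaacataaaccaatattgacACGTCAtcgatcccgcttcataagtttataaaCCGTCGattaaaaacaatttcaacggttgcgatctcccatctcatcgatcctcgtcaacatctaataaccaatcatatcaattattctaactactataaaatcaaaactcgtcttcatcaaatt

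In the lists as deposited, histone genes had a listed nucleosome in the proximal promoter more often than the average gene, but in both high digest lists the order turned when only the most occupied nucleosomes were kept or when the coding start was used. A listed nucleosome was centered within 200 bp upstream of the start in 30 of 43 histone genes in low digest dex, against 33.6% of all protein-coding genes. In low digest mock it was 31 of 43, against 35.1% of all genes. In high digest dex it was 31 of 43, against 36.4% of all genes. In high digest mock it was 28 of 43, against 51.4% of all genes, so that the gap was smallest in the longest list. With only the most occupied 242336 nucleosomes of each list, the length of the shortest one, the share in histone genes was 9.30% in high digest dex and 4.65% for high digest mock, against 12.8% and 14.1% of all genes, while in low digest mock it was 65.1% against 28.1%. Measured from the coding start, it was 41.9% in high digest dex and 58.1% for high digest mock, against 48.4% and 63.8% of all genes. The Wilson 95% intervals for the histone genes, which cover counting error only, were 54.9% to 81.4% for low digest dex, 57.3% to 83.3% for low digest mock and also for high digest dex, and 50.2% to 77.6% for high digest mock. Only the last of these intervals included the value of all genes. This is not a test, because the window was chosen on these data and some of the genes overlap or share sequence. Canonical genes contributed 21, 21, 20 and 17 of 27 in the same list order, and variant genes 7, 9, 8 and 9 of 13. Some 40 of the 43 genes had such a nucleosome in at least 1 list, and 3 had one in no list, against 35.3% of all genes with one in no list. In all 4 lists 19 had one, which was the case for 16.6% of all genes. In 12 histone genes the 200 bp overlap another protein-coding gene, and without these 22, 23, 22 and 21 of 31 genes had a center there. The window of 200 bp was chosen after the coverage profile had been seen. Over 500 bp upstream the median coverage of histone genes was 28.0%, 38.4%, 40.4% and 54.8% in the 4 lists, against 27.0%, 28.0%, 28.0% and 48.0% over all genes. Over the nearest 250 bp it was 56.0% in every list, against 6%, 12%, 17.2% and 44.8%.

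**Figure D1:**
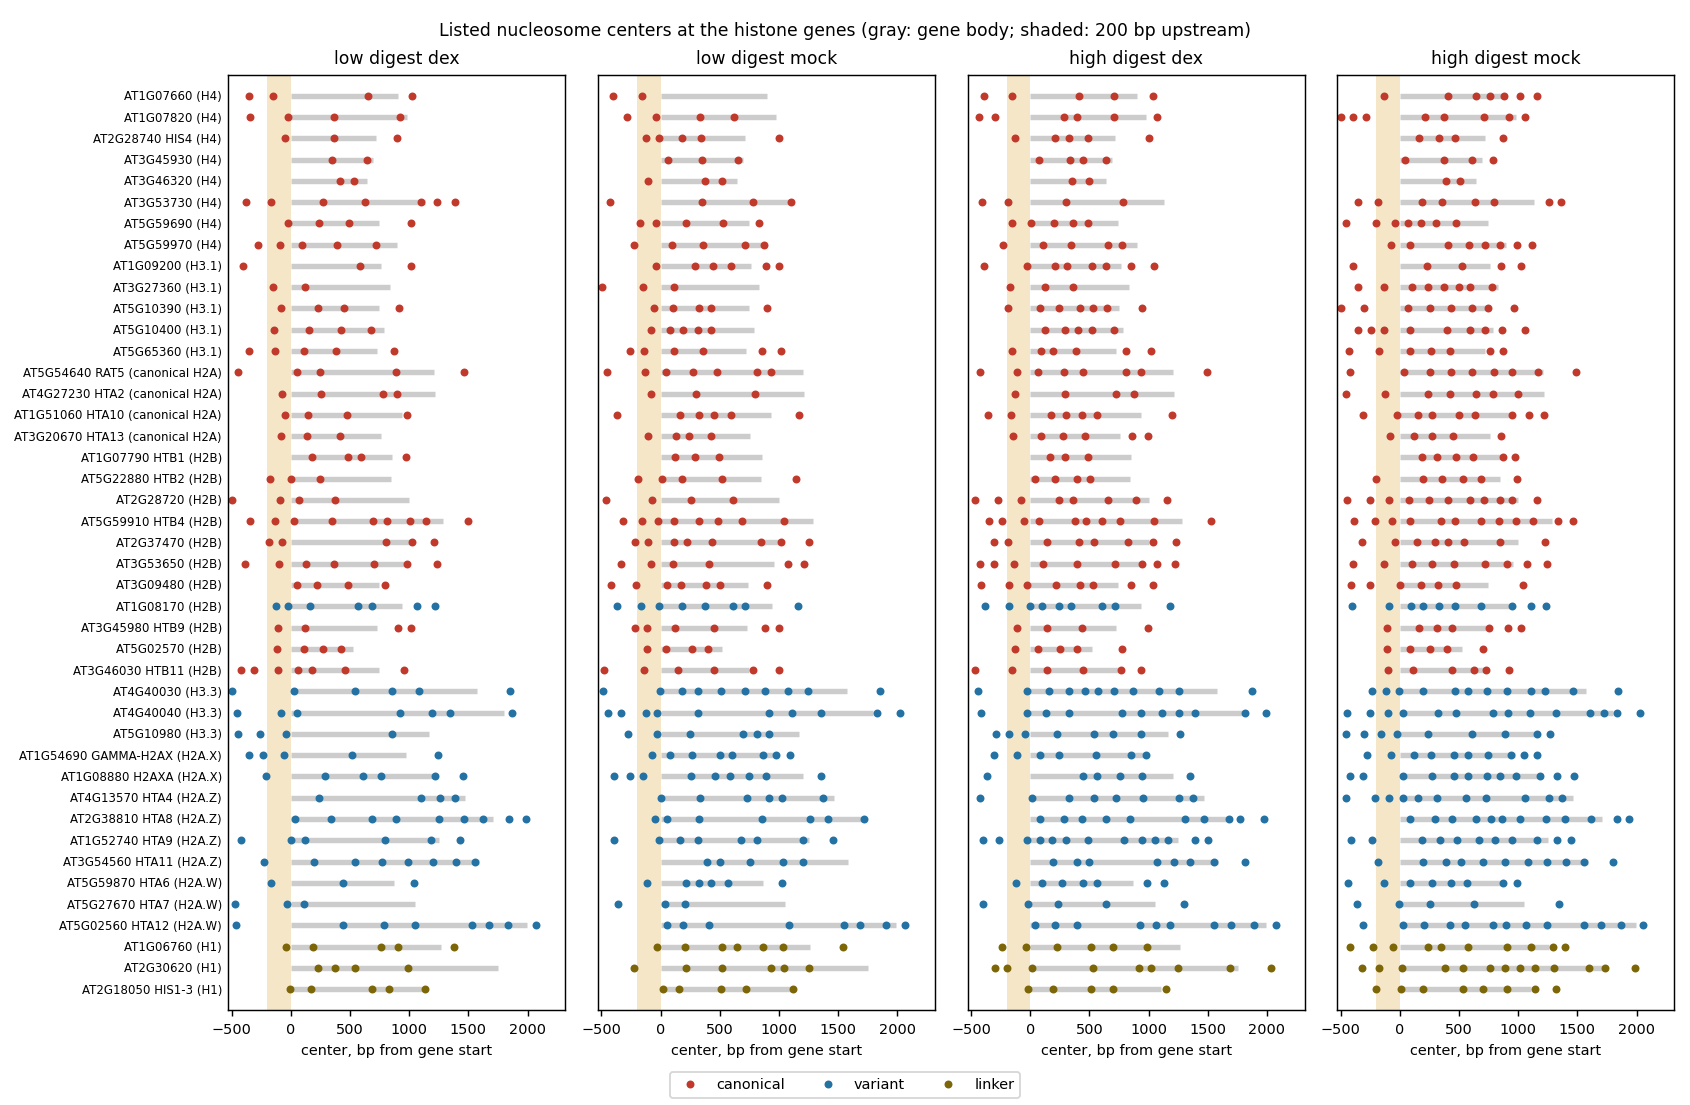
Centers of listed nucleosomes at each of the 43 histone genes (rows) in the 4 lists (panels), in bp from the annotated start, with the gene body in gray and the 200 bp upstream shaded. Red, blue and brown points stand for canonical, variant and linker genes, and the shaded strip holds a center in 30, 31, 31 and 28 genes from left to right.

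Base composition moved with this measure. The 200 bp upstream of histone genes had a median GC content of 36.5%, against 31.5% for all genes. Among the 5367 genes whose upstream GC lay in the middle range of the histone genes (33.8% to 37.8%), a center was found within 200 bp upstream in 55.0% in low digest dex, 62.7% in low digest mock, 63.1% in high digest dex and 68.7% for high digest mock. These values lay between those of the histone genes and of all genes in the first 3 lists and above the histone genes in high digest mock, and all 4 lay within the Wilson intervals of the histone genes. The 4042 other genes with an uninterrupted coding sequence and a length within that of the histone genes (522 to 1992 bp) had a center there in 30.6%, 30.4%, 33.8% and 54.0% of cases, close to all genes. Over the nearest 250 bp, genes in the middle GC range had median coverages of 45.2%, 51.2%, 52.8% and 56.0% in the 4 lists. Over 500 bp they had 28.0%, 31.4%, 41.4% and 56.0%. The part of base composition in the histone gene values was not tested.

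Canonical genes were covered more often than variant genes at 120 bp upstream in 3 of the 4 lists. This base is where the upstream share of canonical genes was highest in high digest dex, so it was not independent of their own profile. At 120 bp upstream, 18 of 27 canonical genes (66.7%) were covered in low digest dex, 19 (70.4%) in low digest mock and 19 in high digest dex, while 4, 5 and 4 of 13 variant genes (30.8%, 38.5% and 30.8%) were covered at that base. In high digest mock 14 canonical genes (51.9%) and 8 variant genes (61.5%) were covered there, so that the canonical genes were not the higher ones. Of all genes 25.04%, 25.9%, 26.8% and 39.8% were covered at that base in the 4 lists. At the start itself the variant genes had the higher share in every list. The start was covered in 10, 11, 7 and 7 of 27 canonical genes (37.0%, 40.7%, 25.9% and 25.9%) and in 8, 9, 8 and 7 of 13 variant genes (61.5%, 69.2%, 61.5% and 53.8%). The Wilson intervals of both classes overlapped in every list, as with 21.5% to 55.8% and 35.5% to 82.3% in low digest dex. Over all histone genes the start lay in a listed nucleosome in 20 of 43 in low digest dex (27.3% of all genes), 22 in low digest mock (32.7%), 18 in high digest dex (32.8%) and 17 for high digest mock (40.1%). With only the most occupied 242336 nucleosomes of each list it was 20, 19, 2 and 0 of 43, against 27.3%, 24.8%, 11.9% and 11.9% of all genes, so that most covered starts at high digest came from nucleosomes outside that part of the list. In the full lists the start was covered in 36.3%, 44.2%, 44.8% and 46.9% of the genes in the middle GC range of the histone genes. The 3 genes for H3.3, the histone replaced outside replication, had a covered start in every list as deposited. The 5 genes for H3.1 had a covered start in 0, 2, 1 and 0 cases in the 4 lists. Other variant types did not share the H3.3 pattern. The start was covered in 1, 0, 0 and 1 of 2 H2A.X genes and in 2, 3, 2 and 1 of 4 H2A.Z genes. For H2A.W it was 1, 2, 2 and 2 of 3 genes. The median upstream GC content was 42.5% for H3.3 and 37.0% for H3.1.

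**Figure D2:**
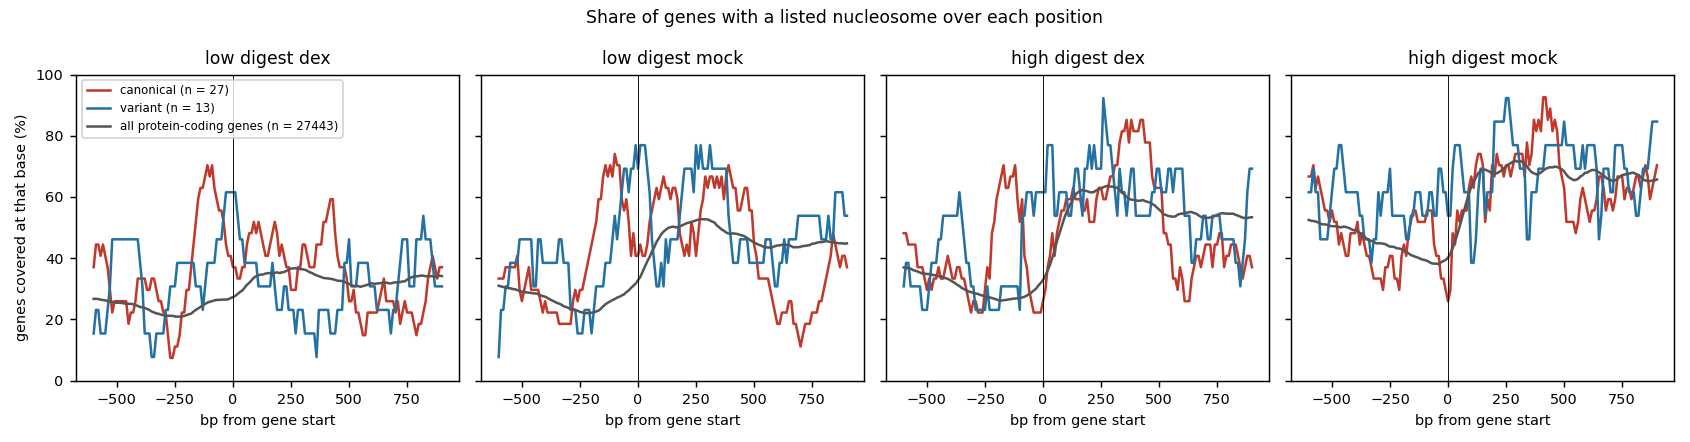
Share of genes (%) with a listed nucleosome over each position from 600 bp upstream to 900 bp downstream of the start, every 10 bp, in the 4 lists. Upstream of the start, the red line (27 canonical genes) is highest between 120 and 90 bp in the first 3 lists, at 70.4%, 74.1% and 70.4%, where the gray line (all genes) stays below 30%. Inside the genes it is higher still in high digest dex, at 85.2% at 380 bp, and the blue line (13 variant genes) is higher than the red one at the start.

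The nucleosome in the proximal promoter ranked high in the low digest lists and low in the high digest lists. Ranks were taken within a list, as the percentage of its nucleosomes with a lower occupancy signal, because the scaling between lists is not stated. The 32 nucleosomes centered within 200 bp upstream of histone genes had a median rank of 77.3% in low digest dex and the 36 in low digest mock had 78.5%, against 59.0% and 64.1% for such nucleosomes of all genes. The 34 in high digest dex had a median rank of 17.0% and the 30 in high digest mock had 12.9%, against 23.7% and 23.5% for all genes. Nucleosomes in the bodies of histone genes had median ranks of 45.0%, 48.7%, 46.9% and 39.6% in low digest dex, low digest mock, high digest dex and high digest mock, against 45.0%, 49.5%, 56.3% and 57.4% over all genes. In the bodies the ranks were thus near those of all genes at low digest. At high digest they were below those of all genes, as in the proximal promoter. In the low digest dex list the occupancy values came in steps of 8, so that many nucleosomes share a rank.

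Taken gene by gene, 26 histone genes had a proximal center in both dex lists. Of these, 20 ranked more than 20 percentage points higher at low than at high digest and 0 more than 20 points lower, while 54.9% and 15.1% of the 6289 protein-coding genes with a center in both lists did so. Of the 21 histone genes with a proximal center in both mock lists, 19 ranked more than 20 points higher at low digest and 0 lower, against 50.5% and 19.1% of 7182 genes. The median difference, low minus high digest, was 56.5 points with dex and 73.1 points with mock in histone genes, and 26.1 and 21.0 points over all genes. Genes in the middle GC range of the histone genes had median differences of 26.8 points with dex and 18.7 points with mock. The counts with only the most occupied 242336 nucleosomes of each list, given above, restate these ranks, and nothing is removed from the low digest dex list there.

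**Figure D3:**
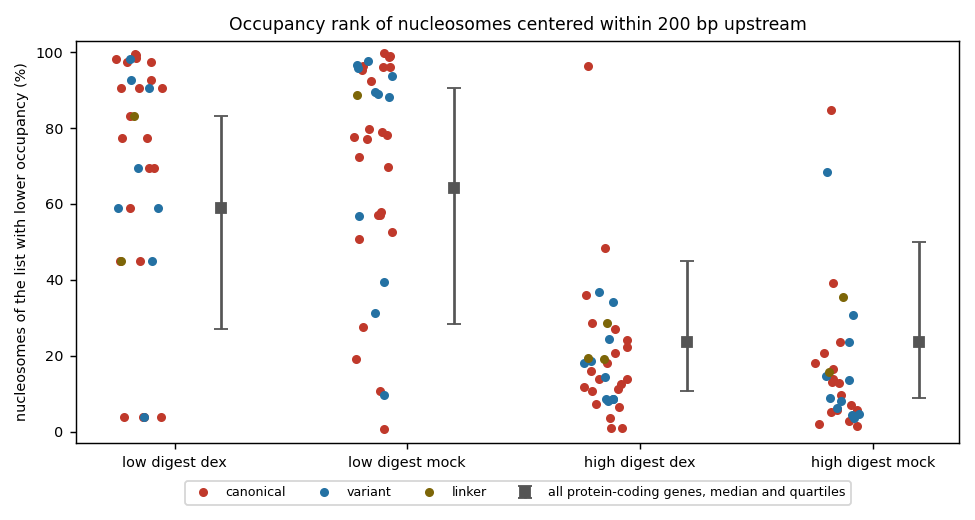
Occupancy rank (% of the list's nucleosomes with a lower signal) of every nucleosome centered within 200 bp upstream of a histone gene, by list. Points are single nucleosomes (red canonical, blue variant, brown linker), gray squares and bars are the median and quartiles for all protein-coding genes, and the points lie mostly above the gray median in both low digest lists and below it in both high digest lists.

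Single genes showed how far the ranks were apart. HTA2 (AT4G27230), a canonical H2A gene, had proximal centers at -73, -83, -133 and -123 bp in low digest dex, low digest mock, high digest dex and high digest mock, with ranks of 99.5%, 99.8%, 15.9% and 13.1%. The H2A gene HTA13 (AT3G20670) had centers at -88, -108, -148 and -88 bp and ranks of 99.2%, 99.0%, 1.06% and 16.4%. In both genes the nucleosome belonged to the most occupied of the low digest lists and to the least occupied of the high digest lists. The H2B gene AT5G02570 had centers at -116, -116, -126 and -106 bp with ranks of 98.3%, 96.1%, 18.0% and 1.34%, and its body and the bases just upstream of its start lie inside HTA12 (AT5G02560), an H2A.W gene on the other strand. HTB9 (AT3G45980) had centers within 10 bp of each other, at -109, -119, -109 and -109 bp, with ranks of 83.0%, 96.5%, 28.7% and 23.5%. Not all genes showed this. The H2B gene AT2G28720 had its proximal nucleosome at -96, -76, -76 and -96 bp with ranks of 97.3%, 98.8%, 96.4% and 84.8%, and it was thus highly occupied in every list. In 4 of the 26 genes with a proximal center in both dex lists, the nucleosome ranked at 3.78% in low digest dex. In high digest dex it ranked at 3.54% in AT3G53730 (H4), 11.8% in AT5G10390 (H3.1), 8.61% in HTA6 (AT5G59870, H2A.W) and 7.23% in AT5G59910 (H2B). With mock, AT5G59910 ranked at 92.4% at low and 5.03% at high digest, and HTA6 at 39.4% and 6.08%. AT3G53730 had no proximal center in low digest mock, and AT5G10390 had none in high digest mock. HIS1-3 (AT2G18050, H1) ranked at 45.0% in low digest dex and 28.7% in high digest dex. These genes were chosen after their values were seen. The last 6, from AT2G28720 on, are those of the 26 that did not differ by more than 20 points with dex.

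Proximal nucleosomes were looked up in the other lists. Of those in low digest dex, 28 of 32 were found in low digest mock with at least 50% of their bases, while 193869 of the 242336 nucleosomes of the whole low digest dex list were found there. In high digest dex, 26 of 34 were found in high digest mock, against 92.5% of the whole list. From low to high digest, 24 of 32 were found with dex and 26 of 36 with mock, against 85.2% and 92.7% of the whole lists. The share was thus below that of the whole list in all of these but the first. For 24 of 32 the Wilson interval, 57.9% to 86.75%, included the value of the whole list. In the reverse lookups the share was above that of the whole list, given in brackets. From mock to dex it was 31 of 36 at low digest (61.5%) and 23 of 30 at high digest (73.0%). From high to low digest it was 24 of 34 with dex (55.5%) and 23 of 30 with mock (61.8%). Over all nucleosomes in the histone gene windows, the shares were 148 of 200 for low digest dex looked up in low digest mock, 253 of 280 for high digest dex looked up in high digest mock, 155 of 200 for low digest dex looked up in high digest dex and 208 of 238 for low digest mock looked up in high digest mock.

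Most sites of the shared promoter elements at histone genes were covered by a listed nucleosome. The octamer CGCGGATC occurred in the 500 bp upstream of 10 of 43 histone genes and of 58 of 27401 other genes, which is 23.3% against 0.212%. All 12 octamer sites of histone genes lay within 123 bp of the start, as in the H4 sequence shown, where the octamer sits at -68 bp beside a pair of CCGTCG matches. In low digest dex, low digest mock, high digest dex and high digest mock, 10, 10, 7 and 10 of these 12 sites were covered by a listed nucleosome, and 5 were covered in all 4 lists. Of the 59 octamer sites of other genes, 57.6%, 64.4%, 59.3% and 64.4% were covered in the same lists. The Wilson interval for 10 of 12 sites runs from 55.2% to 95.3%, so that this number of sites cannot separate them from octamers elsewhere. With the most occupied 242336 nucleosomes of each list, 0 of the 12 were covered in either high digest list. The octamer was found at 3 of 5 H3.1 genes, 2 of 8 H4 genes, 2 of 4 canonical H2A genes, 1 H3.3 gene (AT4G40040), 1 H2A.W gene (HTA6) and 1 H1 gene (AT1G06760), and at 0 of 11 H2B genes.

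The H2B genes carried the hexamer ACGTCA instead. It occurred upstream of 8 of 11 H2B genes and of 14 of 43 histone genes in all, against 12.7% of other genes. Of its 16 sites at histone genes, 14 were covered in low digest dex, 11 in low digest mock, 10 in high digest dex and 14 for high digest mock, and 9 were covered in every list. Of 4095 hexamer sites at other genes, 43.1%, 46.2%, 45.4% and 55.8% were covered. In the HTB9 sequence shown, the hexamer at -153 bp and the CCGTCG element at -121 bp were both covered in all 4 lists. CCGTCG was found upstream of 11 histone genes (25.6%, against 5.67% of other genes), 4 of them for H4, and 9, 11, 11 and 11 of its 12 sites were covered, against 52.3%, 70.7%, 70.3% and 68.9% of the sites of other genes. Most hexamer and CCGTCG sites at histone genes lay within 200 bp of the start, where these genes more often had a listed nucleosome. Sites of other genes were taken over the whole 500 bp and not matched by position. The nonamer CATCCAACG, another element searched, occurred at 0 histone genes and at 70 other genes. The octamer and CCGTCG were searched on both strands like the others, and in AT4G40040 their matches overlap.

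Some promoters lacked a listed nucleosome. The 500 bp upstream held no center in 7 of 43 histone genes in low digest dex (41.1% of all genes), 6 in low digest mock (38.7%), 8 in high digest dex (34.3%) and 5 for high digest mock (17.1%). These were 16.3%, 14.0%, 18.6% and 11.6% of the histone genes. Among genes in the middle GC range of the histone genes the shares were 24.3%, 17.7%, 15.2% and 8.31%. Histone genes thus lacked a center more often than these genes in both high digest lists. HTB1 (AT1G07790, H2B) and AT3G45930 (H4) had none in any list. Both promoters are repeated in the genome. Only 11.1% of the 50-base stretches upstream of HTB1 and 38.1% of those upstream of AT3G45930 occur once, and reads with more than a single best position were dropped by the authors. A copy of the HTB1 upstream region lies at chr1:2409307-2409806, beside AT1G07780, and AT3G45930 shares its upstream region with the H4 gene AT3G46320, of which 41.2% is single-copy and which had a proximal center in low digest mock only. Absence of a nucleosome and absence of placed reads cannot be told apart at these 3 genes. Without the 6 genes in which fewer than 90% of the 50-base stretches of the body or promoter occur once, 28, 28, 30 and 26 of 37 histone genes had a proximal center in the 4 lists.

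Over the gene bodies the histone genes resembled other genes. The median gene body coverage of the 43 genes was 36.8% in low digest dex, 49.2% in low digest mock, 56.8% in high digest dex and 69.4% for high digest mock, against 37.8%, 50.7%, 59.5% and 70.9% over all protein-coding genes. In the 4 lists 17, 21, 17 and 18 histone genes lay above the median of all genes. Canonical genes had medians of 37.0%, 47.3%, 55.9% and 66.2%, and variant genes 36.8%, 50.9%, 61.8% and 72.9%. When only the coding span was measured, the canonical genes were the higher ones in low digest mock, high digest dex and high digest mock by 1.72, 7.03 and 2.22 points, so the order of the classes turned with the part of the gene that was measured. With the most occupied 242336 nucleosomes of each list, the histone genes had a median of 23.4% in high digest mock, against 41.5% over all genes, whereas in low digest dex, low digest mock and high digest dex they had 36.8%, 38.5% and 37.4% against 37.8%, 39.7% and 42.4%. Many nucleosomes listed over histone gene bodies in high digest mock thus belonged to the less occupied part of that list.

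**Figure D4:**
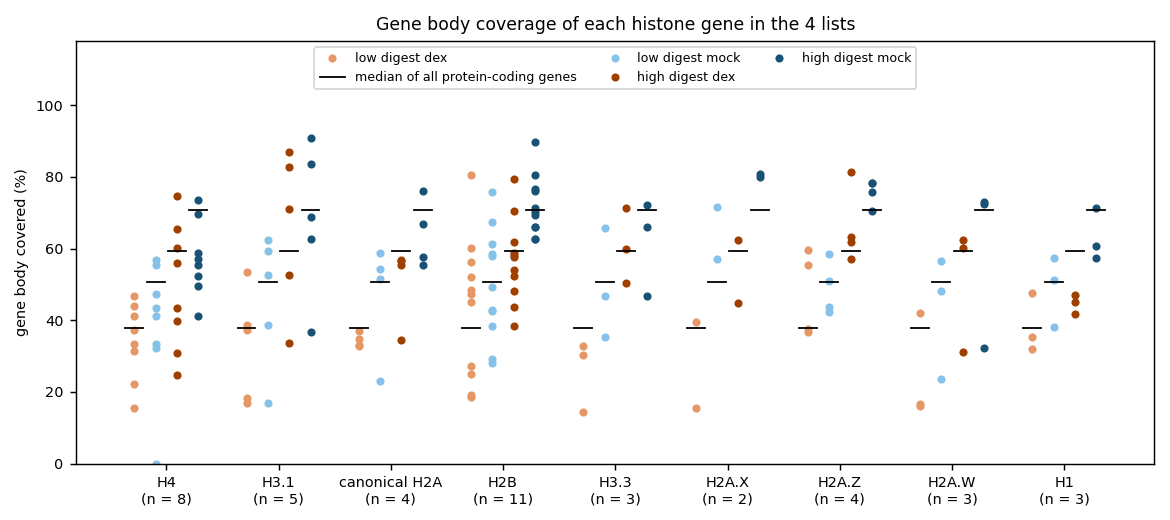
Gene body coverage (% of bases in a listed nucleosome) of each histone gene, grouped by histone type, with 1 color for each list and a black line at the median of all protein-coding genes in that list. The points scatter on both sides of the lines in nearly all types, from 0% (an H4 gene in low digest mock) to 90.9% (an H3.1 gene in high digest mock).

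Within most types the genes differed widely in mean body coverage, although they encode closely related proteins. The means lay closer together among the H2A.X genes (55.4% to 57.6%), the H1 genes (45.9% to 51.2%) and the H2A.Z genes (55.2% to 63.7%). Among the H4 genes, AT5G59970 had the highest mean over the lists, with 46.7% of its body covered in low digest dex, 56.8% in low digest mock, 60.1% in high digest dex and 73.5% for high digest mock. AT1G07660 had the lowest, with 15.5%, 0%, 31.0% and 52.5%. Only 77.5% of the body stretches of AT1G07660 occur once, since it shares sequence with the H4 gene AT1G07820, and its part in the low value was not tested. Among the H3.1 genes, AT5G10400 had 53.4%, 62.3%, 82.7% and 68.7%, and AT3G27360 had 16.8%, 16.8%, 33.6% and 90.9%. AT3G27360 was thus the least covered H3.1 gene in the first 3 lists and the most covered one in high digest mock. Among the H3.3 genes, AT4G40030 had the highest mean with 60.5% and AT5G10980 the lowest with 39.6%.

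Among the canonical H2A genes, RAT5 (AT5G54640), known for its need in Agrobacterium transformation of roots, had 33.2%, 54.3%, 56.8% and 76.0%, and HTA2 had 33.0%, 23.1%, 34.6% and 57.7%. HTA2, whose promoter nucleosome ranked high at low digest and low at high digest, thus had the lowest mean body coverage of its type. The H2A.X genes, whose products are phosphorylated at DNA breaks, had means of 57.6% (GAMMA-H2AX, AT1G54690) and 55.4% (H2AXA, AT1G08880). In GAMMA-H2AX the body was covered for 15.5% in low digest dex and 71.6% in low digest mock, the widest gap of any histone gene at that digest, against 62.4% in high digest dex and 80.9% for high digest mock. Of the H2A.Z genes, whose product marks gene starts and responsive genes, HTA9 (AT1G52740) had the highest mean with 63.7% and HTA4 (AT4G13570) the lowest with 55.2%. Of the H2A.W genes, whose product marks heterochromatin, HTA12 had the highest mean with 55.8% and HTA7 (AT5G27670) the lowest with 25.9%, at 16.5%, 23.7%, 31.3% and 32.2% in the 4 lists.

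The H2B genes spanned from AT5G02570, with 80.5%, 75.7%, 79.5% and 80.5%, to HTB9, with 19.3%, 38.5%, 38.5% and 62.6%. The coverage of AT5G02570 hardly moved with the list, and all of its 522 bp lie inside HTA12, so that its nucleosomes belong to both genes. Among the 3 H1 genes, HIS1-3 (AT2G18050), the stress-inducible H1, had 47.7%, 51.3%, 45.0% and 60.8%, AT1G06760 had 35.3%, 57.4%, 47.1% and 57.3%, and AT2G30620 had 32.0%, 38.2%, 41.8% and 71.5%. The start of all 3 was covered in both high digest lists, and AT1G06760 had a proximal center in every list, at -45, -35, -35 and -55 bp.

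Body coverage with dex was compared with mock at each digest, calling a gene different beyond 20 percentage points. At low digest 11 of 43 histone genes were lower with dex (24.5% of all genes) and 0 were higher (1.05%), and the median difference, dex minus mock, was -8.91 points against -11.36 over all genes. At high digest 9 were lower (17.4%) and 1 was higher (0.758%), with a median of -10.26 points against -9.90. These shares were near those of all genes, and the dex list was the shorter one at each digest. No histone gene differed beyond 20 points in the same direction at both digests, which 2.89% of all genes did. The H3.1 gene AT1G09200 was the gene higher with dex at high digest, with 71.1% covered in high digest dex and 36.6% for high digest mock, while it had 18.3% in low digest dex and 59.3% in low digest mock. With lists of equal size the median difference of the histone genes at high digest was 14.96 points, against 0 over all genes, so its direction turned with the length of the lists, and at low digest it was 0 points.

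Between digests, 19 of 43 histone genes were less covered at low than at high digest with dex (48.8% of all genes) and 0 were more covered (0.459%). With mock 21 were less covered (43.5%) and 1 was more covered (0.408%). The median difference, low minus high digest, was -17.9 points with dex and -19.8 points with mock, against -19.6 and -18.0 over all genes. With lists of equal size it was 0.958 and 13.99 points, against -3.20 and -0.526 over all genes. In 7 histone genes coverage was lower at low digest by more than 20 points in both treatments, as it was in 22.4% of all genes. They were AT5G59690 (H4), AT5G10390 (H3.1), AT4G40040 (H3.3), RAT5, HTA9, HTB2 (AT5G22880) and AT2G28720. AT5G10390 had 37.4% in low digest dex and 86.9% in high digest dex, and 52.5% in low digest mock and 83.6% in high digest mock. HTA9 had 36.8% and 81.3% with dex, and 58.4% and 78.4% with mock, at low and high digest.

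Beyond the ends, the 300 bp downstream of histone genes were covered for a median of 40.0% in low digest dex, 26.7% in low digest mock, 41.0% in high digest dex and 67.3% for high digest mock, against 21.3%, 27.7%, 41.0% and 56.0% over all genes. The first nucleosome center downstream of the start, inside the gene or past its end, lay at a median of 169, 132, 133 and 105 bp. Over all genes it lay at 223, 156, 142 and 126 bp.

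The same counts were made for other genes of histone supply. Of 6 other H3 genes, which include the centromeric HTR12 (AT1G01370) and the pollen gene MGH3 (AT1G19890), 2, 4, 2 and 3 had a center within 200 bp upstream in low digest dex, low digest mock, high digest dex and high digest mock. Of 13 genes for histone chaperones, which carry histones to DNA, 5, 8, 5 and 5 had one. Over all protein-coding genes the shares were 33.6%, 35.1%, 36.4% and 51.4% in the same lists. The highest mean body coverage among the 6 other H3 genes was 66.6% at HTR11 (AT5G65350) and the lowest was 49.4% at AT1G13370. Among the chaperones it was 66.5% at FAS2 (AT5G64630), a subunit of the CAF-1 complex, and 45.6% at NAP1;2 (AT2G19480). These counts are set beside those of the histone genes without a test.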

How the data were processed

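Reads were placed on TAIR10 by the authors with Bowtie 1.2.2, which dropped pairs that fit more than one place, and nucleosomes were called with DANPOS, as the methods state. Picard 2.9.4 is also named in the submitters' processing notes. Calls were made on the replicates, which for low digest dex were pooled beforehand. The 4 deposited lists give intervals of 140 bp and an occupancy signal at the summit, used here only for ranks within a list. Per-replicate values and read depth are unknown, so no test was run, and shares of genes carry Wilson intervals of 95%.

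Here the share of bases in listed nucleosomes was computed per gene with Python 3.11.15 and NumPy 2.4.6 over gene bodies, 500 bp upstream (or 250 bp) and 300 bp downstream, with RefSeq gene models on TAIR10.1, whose 5 nuclear chromosomes match TAIR10. Interval starts were read as counting from 0. Coverage code was tested on simulated data. Column values were all assigned to a list. The members and gene lists were chosen with earlier results of these data known. Genes named are, for each histone type, those with the highest and lowest mean body coverage, those without a promoter center in any list, those differing beyond 20 points in both pairs of lists, and the H1 genes. Alternatives were lists of equal size, the higher 50% by occupancy, single-copy members, other windows, the coding start and other overlap limits.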

Additional observations from a re-analysis of the deposited data

Results flagged for a closer look

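The H3.1 gene AT1G09200 went opposite ways in both pairs of lists. Its body coverage with dex minus mock was -41.0 points at low digest and 34.4 points at high digest, and low minus high digest was -52.8 points with dex and 22.6 points with mock. The difference between these contrasts was not tested, since each condition is 1 list. Opposite differences beyond 20 points were found in 0.754% of all genes for dex against mock and in 0.405% for low against high digest.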

How the results depend on the processing

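No paired analysis was possible because each condition is 1 list without replicates, and for the same reason no replicate could be left out. Of 128 alternative values, 79 stayed near the main one, 42 moved and 7 turned direction, where a difference counted as moved beyond 5 points and a share when outside its Wilson interval. With lists of equal size, high digest dex and high digest mock gave 4.65% and 0% of histone genes with a covered start (11.9% and 11.9% of all genes), 9.30% and 4.65% with a proximal center (12.8% and 14.1%), and 0% of octamer sites covered in both. The median promoter coverage in high digest dex then differed from all genes by 0 points, and in high digest mock median body coverage differed from all genes by -18.1 points and between canonical and variant genes by -14.3 points. The median dex minus mock difference became 0 points at low digest and 14.96 points at high digest, and low minus high digest became 0.958 points with dex and 13.99 points with mock. With the higher 50% by occupancy, start coverage was 2.33% in high digest dex and 0% for high digest mock (8.05% and 11.8% of all genes), proximal centers were in 2.33% and 4.65% of histone genes (8.16% and 14.0%), all below all genes, promoter coverage differed from all genes by 28.0 points in low digest dex, 27.0 in low digest mock and 0 in high digest dex, while body coverage in high digest mock differed from all genes by -17.9 points and between the classes by -14.3 points. With 250 bp, promoter coverage differed from all genes by 50, 44 and 38.8 points in low digest dex, low digest mock and high digest dex. With the coding span, histone genes were 6.68 points above all genes in high digest mock, and canonical genes were above variant genes by 1.72, 7.03 and 2.22 points in low digest mock, high digest dex and high digest mock. With the coding start in place of the gene start, that start was covered in 76.7%, 83.7% and 81.4% of histone genes in these lists (53.4%, 64.0% and 71.1% of all genes), and centers within 200 bp upstream of it were found in 55.8%, 41.9% and 58.1% (40.8%, 48.4% and 63.8%), and in 48.1%, 29.6% and 55.6% of canonical genes, so that the order turned in both high digest lists. Requiring 80% overlap, the member nucleosomes found again were 47.5% (low digest dex in low digest mock), 65.7% (high digest dex in high digest mock), 47.5% (low digest dex in high digest dex) and 55.9% (low digest mock in high digest mock), and with 1 bp they were 86.0%, 96.4%, 88.0% and 92.9%. Leaving out repeated members, or those with another gene upstream, moved none of these values. The cause of the moved values was not tested beyond what the list length and window set by construction. Proximal center alternatives were chosen after seeing the data. With unknown depth, an unlisted nucleosome is not an absent one.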

Other observations

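The H4 pair AT3G45930 and AT3G46320 shared 265 stretches of 50 bases in their promoters and 166 in their bodies, and AT1G07660 and AT1G07820 shared 180 in their bodies. No pair of H2A or H2B genes at separate places shared more than 18 such stretches. In the 500 bp upstream, 27 of 43 histone genes held at least 1 of the 4 elements searched, 20 of them among the 27 canonical genes, against 4890 of 27444 genes.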
